A study of Mus musculus with 6 samples.

Results

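Foxp3, Helios (Ikzf2) and 8 further genes known from regulatory T cells were followed in memory-phenotype CD4+ T cells of mice with experimental autoimmune encephalomyelitis (EAE), an induced autoimmune disease of the central nervous system used to model multiple sclerosis. The genes were Foxp3, Ikzf2, Ikzf4, Ctla4, Lrrc32, Gpr83, Nrp1, Izumo1r, Fgl2 and Swap70. Every probe set whose platform annotation names exactly 1 gene, and that gene from this list, was taken, which gave 19 probe sets of 9 genes among 45037 probe sets without the array's controls. Lrrc32, which encodes the docking receptor for latent TGF-beta, was not analysed here.

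Spinal cord, where the disease does its damage, supplied the T cells of 3 arrays, and inguinal nodes that drain the immunization site supplied those of 3 more. All were from female C57BL/6 mice aged 8 to 10 weeks with acute clinical EAE induced with MOG35-55, a peptide of myelin oligodendrocyte glycoprotein, and T cells of untreated mice were not analysed here. How the cells were sorted, and whether an array holds 1 animal or a pool, is not in the labels, so the spread behind each p-value may be technical. The series title ties Dgat1 and retinol to the generation of regulatory T cells, and the comparison here asks which genes of that lineage differed between T cells of the target tissue and of the node.

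Regulatory T cells restrain other T cells, and mice or people without functional Foxp3 develop fatal autoimmunity. The transcription factor Foxp3 sets their program together with partners that include the Ikaros family proteins Helios (Ikzf2) and Eos (Ikzf4), and Ctla4 and other surface or secreted proteins carry out part of the suppression. Several of these genes are not confined to that lineage: activated T cells induce Ctla4 and Helios, follicular helper T cells carry folate receptor 4 (Izumo1r), macrophages and dendritic cells make Fgl2, and B cells express Swap70. A bulk array cannot tell fewer cells of a type from less RNA per cell.

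Values are RMA intensities, the brightness of a probe set after background correction and normalization, on a linear scale. The 6 arrays had median intensities of 68 to 71, and their number limits the precision. T cell identity genes, namely Cd3e, Cd3d, Cd3g, Cd247, Cd4, Cd2, Cd5 and Cd6, summed to 34210 to 43049 in spinal cord, against 33870 to 51014 in lymph node, and 0 of the 8 were called by limma (0 higher and 1 lower, Cd247, at an unadjusted p below 0.05, and 0 with the array number as a block). Over all 18193 genes, each by its brightest probe set, 5.56% were higher and 8.93% lower at an unadjusted p below 0.05, the share against which such counts are to be read. Of the same genes 0.77% were called higher and 0.934% lower by limma, and 2.87% and 5.03% with the block. Counts of called list genes below are to be read against these shares. The genes and lists were chosen with earlier results of these data known, so a count above its share is no test of a list. Cd4 itself read 6371, 4101 and 2763 on spinal cord arrays 1, 2 and 3 and 7669, 2063 and 2823 on lymph node arrays 1, 2 and 3, and Cd8a read 165 to 225 in spinal cord, against 121 to 186 in lymph node. Every set of 3 values below is in the order of arrays 1, 2 and 3.

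Among the genes, Fgl2 rose in spinal cord, Ikzf2 and Izumo1r fell, and Foxp3 itself was not called. By limma with Benjamini-Hochberg adjustment over all 45037 probe sets, called at an adjusted p below 0.05, 1 of the 19 probe sets was higher in spinal cord and 3 were lower, while 15 were not called. Over all probe sets 0.573% were called higher and 0.613% lower. The tissues did not overlap for 4 probe sets that were higher in spinal cord (8.3% of all probe sets) and for 5 that were lower (7.57%). The array numbers in the titles paired the arrays in the data, and with the number as a block 3 of the 19 were higher and 3 lower, against 2.47% and 3.74% of all. The median log2 difference over the 19 probe sets was -0.06.

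**Figure D1:**
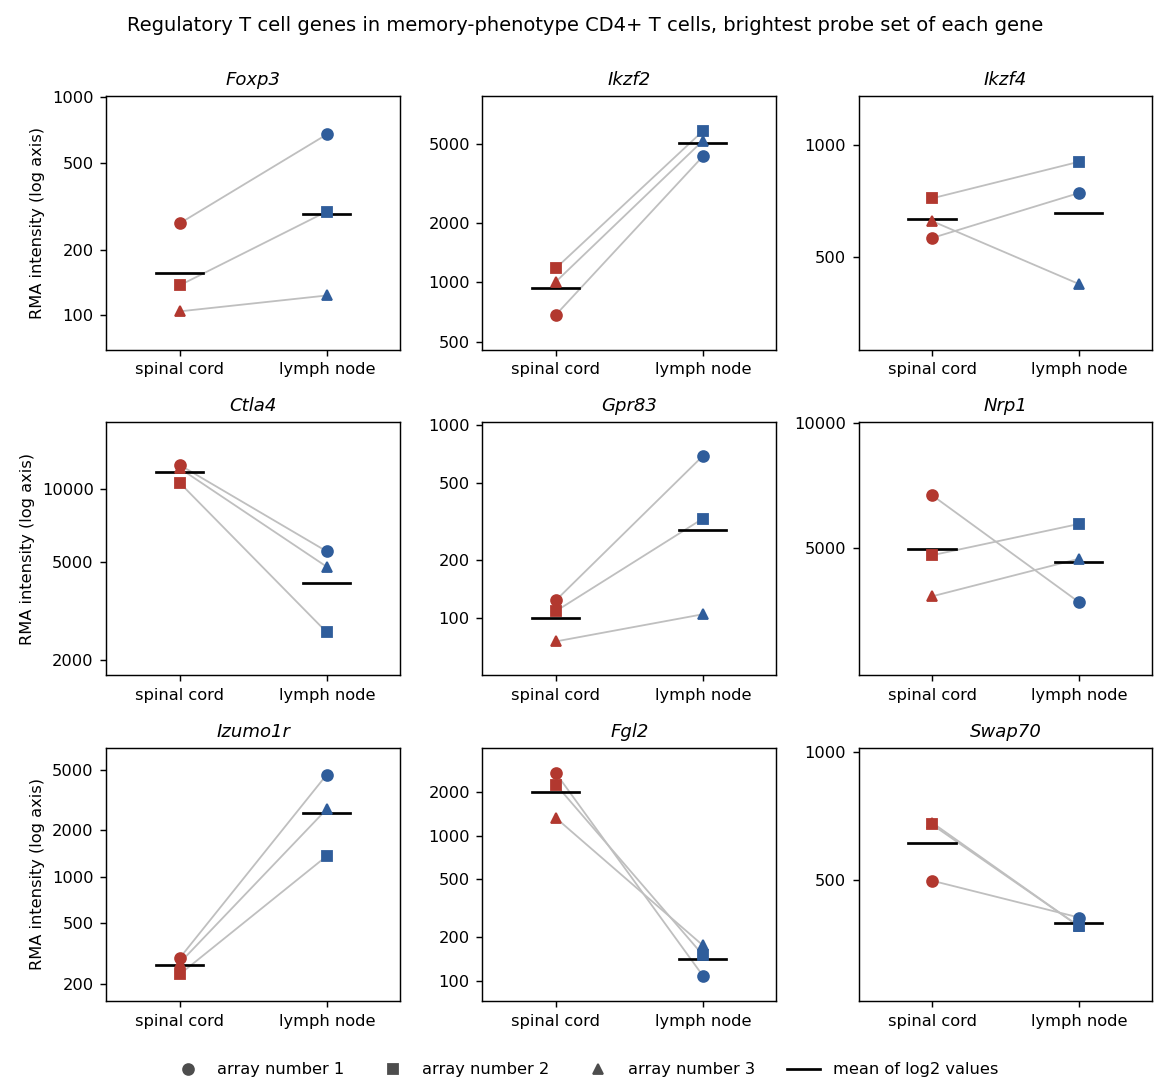
RMA intensity (log axis) of the brightest probe set of 9 genes on each array, with spinal cord arrays in red on the left and lymph node arrays in blue on the right of each panel. Marker shape gives the array number, grey lines join arrays of the same number and black bars are means of log2 values (n = 3 each). The tissues stand apart for Ikzf2, Ctla4, Izumo1r, Fgl2 and Swap70 and overlap for Foxp3, Ikzf4, Gpr83 and Nrp1.

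The lineage factor Foxp3 read 264, 137 and 104 in spinal cord, against 676, 299 and 123 in lymph node (probe set 1420765_a_at). The highest spinal cord array lay above the lowest lymph node array, so the tissues overlapped, although each spinal cord array read lower than the lymph node array of its number. The mean log2 level was 7.28 ± 0.69 in spinal cord and 8.19 ± 1.23 in lymph node (SD, n = 3 each). The log2 difference was -0.91 ± 0.67 SE, with an adjusted p of 0.709 by limma (0.0989 with the block) and a 95% interval from -2.55 to 0.73, which spans a fall to 0.171 of the lymph node level and a rise of 1.66-fold. The ratio of spinal cord to lymph node was 0.391, 0.458 and 0.846 within numbers 1, 2 and 3.

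Helios, encoded by the Ikaros family gene Ikzf2, was 5.42-fold lower in spinal cord on its brightest probe set. That probe set (1437542_at) read 685, 1177 and 1006 in spinal cord, against 4312, 5789 and 5172 in lymph node. No spinal cord array came near any lymph node array, and the spread within each tissue was small beside the gap. The mean log2 level was 9.87 ± 0.40 in spinal cord and 12.30 ± 0.21 in lymph node (SD, n = 3 each), a difference of -2.44 ± 0.23 SE (adjusted p = 0.0138 by limma). Leaving out spinal cord array 2 or 3 ended the call (adjusted p = 0.0651 and 0.0599), as did leaving out lymph node array 2 or 3 (adjusted p = 0.0792 and 0.0571), with log2 differences of -2.61 to -2.22 over the 6 fits that leave out an array. A second probe set (1456956_at) read 73, 116 and 141 in spinal cord, against 628, 351 and 705 in lymph node. It was also called, at -2.34 ± 0.35 (adjusted p = 0.0497 by limma), but in none of the 6 fits that leave out an array (highest adjusted p 0.178). The third (1421643_at) was dim, at 28 to 36 in spinal cord, against 39 to 44 in lymph node, and was not called (-0.38 ± 0.13, adjusted p = 0.334).

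Eos, encoded by Ikzf4, a partner of Foxp3 in gene silencing, was not called on any of its 3 probe sets. The brightest (1457342_at) read 562, 718 and 624 in spinal cord, against 742, 900 and 423 in lymph node. All 3 spinal cord arrays lay inside the lymph node range. The log2 difference was -0.06 ± 0.29 (adjusted p = 0.967 by limma), with a 95% interval from -0.77 to 0.66. The other probe sets read 153 to 351 in spinal cord, against 125 to 477 in lymph node (1438274_at), and 37 to 45 in spinal cord, against 33 to 41 in lymph node (1460664_at). Of the other Ikaros family genes, Ikzf1 (Ikaros) differed by -0.28 ± 0.17, Ikzf3 (Aiolos) by -0.79 ± 0.20 and Ikzf5 (Pegasus) by -0.04 ± 0.43. None of these was called, and Ikzf3, at 974 to 1389 in spinal cord, against 1597 to 2275 in lymph node, passed with the block (adjusted p = 0.179; 0.034 with the block). The difference between Ikzf2 and its relatives was not tested.

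Izumo1r, which encodes folate receptor 4, was 9.81-fold lower in spinal cord. Its single probe set (1420700_s_at) read 294, 230 and 273 in spinal cord, against 4633, 1362 and 2760 in lymph node. The spinal cord arrays were close together, while the lymph node arrays spread over a wide range far above them. The mean log2 level was 8.05 ± 0.18 in spinal cord and 11.34 ± 0.89 in lymph node (SD, n = 3 each), a difference of -3.29 ± 0.44 SE (adjusted p = 0.0335 by limma). Without a single array it was called in 1 fit only, that without lymph node array 2, and the adjusted p was 0.106, 0.152 and 0.133 without spinal cord arrays 1, 2 and 3, and in lymph node 0.0578 without array 1 and 0.121 without array 3. The other folate receptor genes Folr1 and Folr2 read 45 to 55 and 64 to 82 in spinal cord, and 36 to 46 and 51 to 61 in lymph node, and neither was called (log2 differences 0.24 ± 0.15 and 0.30 ± 0.14).

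Gpr83, a G protein-coupled receptor gene enriched in regulatory T cells, lies next to Izumo1r on mouse chromosome 9 in the RefSeq annotation, with 0 annotated genes between them. Its brighter probe set (1423415_at) read 124, 109 and 76 in spinal cord, against 692, 328 and 105 in lymph node. The second (1439569_at) read 72, 56 and 51 in spinal cord, against 531, 408 and 72 in lymph node. On both probe sets lymph node array 3 was at or below the highest spinal cord array, and the other lymph node arrays were well above it. The log2 differences were -1.51 ± 0.67 and -2.08 ± 0.75, and neither was called (adjusted p = 0.47 and 0.356 by limma, 0.0927 and 0.0871 with the block).

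Fgl2, a fibrinogen-like protein that regulatory T cells and myeloid cells secrete, was 14.1-fold higher in spinal cord. Its brighter probe set (1421855_at) read 2694, 2247 and 1323 in spinal cord, against 108, 150 and 175 in lymph node. The lowest spinal cord array stood several-fold above the highest lymph node array. The mean log2 level was 10.97 ± 0.53 in spinal cord and 7.14 ± 0.36 in lymph node (SD, n = 3 each), a difference of 3.82 ± 0.32 SE (adjusted p = 0.0114 by limma). Leaving out array 2 of spinal cord ended the call (adjusted p = 0.0777), as did leaving out array 2 of lymph node (0.0694), with log2 differences of 3.61 to 4.12 over the 6 fits. The second probe set (1421854_at) read 881, 965 and 201 in spinal cord, against 46, 46 and 34 in lymph node. The same direction was seen, with spinal cord array 3 well below the other spinal cord arrays, at 3.74 ± 0.62 (adjusted p = 0.0635 by limma; 0.0127 with the block).

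Because Fgl2 is also a myeloid gene, the macrophage, monocyte and microglia markers are given beside it. All 17 had positive log2 differences (median 1.73), and 0 were called. At an unadjusted p below 0.05, 15 were higher and 0 lower, against 5.56% and 8.93% of all genes. With the block 6 were higher, against 2.87% of all genes. They summed to 7202, 14367 and 7487 in spinal cord, against 2614, 3362 and 2859 in lymph node. Among the spinal cord arrays the sum was highest on array 2. The brighter Fgl2 probe set was highest on array 1 and the second on array 2. No source of Fgl2 is read from this order. The brightest markers were Ccr2 and the macrophage growth factor receptor gene Csf1r. Ccr2, which T cells also express, read 5592, 6814 and 3245 in spinal cord, against 1754, 2484 and 1872 in lymph node, a large part of each sum. Csf1r read 237, 1486 and 754 in spinal cord, against 99, 57 and 98 in lymph node. The integrin gene Itgam read 26 to 27 in spinal cord, against 22 to 25 in lymph node, close to 25, the 20th percentile of all intensities. Their part in the Fgl2 result was not tested. Of the Fgl2 paralogue and receptors, the receptor gene Fcgr2b rose at 840, 826 and 926 in spinal cord against 550, 446 and 452 in lymph node (0.84 ± 0.13, adjusted p = 0.0484 by limma, called in none of the 6 fits that leave out an array). The paralogue Fgl1 read 20 to 27 in spinal cord, against 22 to 28 in lymph node, and the receptor gene Fcgr3 read 79, 313 and 185 in spinal cord, against 56, 59 and 54 in lymph node (1.56 ± 0.48, adjusted p = 0.271).

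Ctla4, the inhibitory receptor that competes with Cd28 for its ligands, read higher in spinal cord on all 3 arrays. Its probe set read 12504, 10569 and 12119 in spinal cord, against 5551, 2593 and 4803 in lymph node (1419334_at). The tissues did not overlap, and the spinal cord arrays were much closer together than the lymph node arrays. The log2 difference was 1.51 ± 0.30, or 2.85-fold, and was not called (adjusted p = 0.0991 by limma; 0.0208 with the block, and 0.0104 when each array was centred on the T cell identity genes). Among 9 measured Ctla4 partners and ligands, 1 was called, higher in spinal cord, against 0.77% of all genes called higher. This was Cd86, a shared ligand of Ctla4 and Cd28, at 297, 332 and 330 in spinal cord against 130, 105 and 98 in lymph node (1.53 ± 0.14, adjusted p = 0.0128). Cd80 (0.89 ± 0.19) and the Icos ligand gene Icosl (0.78 ± 0.31) were not called and passed with the block (adjusted p = 0.125 and 0.412 by limma, 0.0391 and 0.0308 with the block). Cd86, Cd80 and Icosl are known from antigen-presenting cells. The dendritic cell list summed to 2060 to 2742 in spinal cord, against 939 to 1238 in lymph node. Of its 9 measured members 2 were called higher, against 0.77% of all genes. The macrophage list above moved in the same direction, and the part of both lists in these values was not tested.

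Nrp1, a semaphorin and growth factor co-receptor found on regulatory T cells that arise in the thymus, had 4 probe sets that did not move together. The brightest (1448943_at) read 6713, 4815 and 3836 in spinal cord, against 3715, 5726 and 4722 in lymph node. The next (1418084_at) read 3626, 2185 and 1707 in spinal cord, against 2421, 1767 and 1585 in lymph node, and the third (1448944_at) read 2131, 1807 and 694 in spinal cord, against 2268, 1683 and 680 in lymph node. The tissues overlapped on these 3, with log2 differences of 0.10 ± 0.26, 0.33 ± 0.31 and 0.01 ± 0.60. The dimmest (1457198_at) read 398, 307 and 246 in spinal cord, against 496, 581 and 949 in lymph node, without overlap (-1.06 ± 0.30, adjusted p = 0.226 by limma). None of the 4 was called, with or without the block, and the difference between the probe sets was not tested. Among 11 measured partners of Nrp1, 0 were called. With the block 2 were higher and 0 lower, against 2.87% and 5.03% of all genes. At an unadjusted p below 0.05, 3 were higher and 0 lower, against 5.56% and 8.93% of all genes. Those with the smallest p were Sema4a, a ligand of Nrp1 in mouse regulatory T cells (1.08 ± 0.34, adjusted p = 0.276; 0.0174 with the block), Sema7a (1.25 ± 0.49) and Plxna4 (0.37 ± 0.11). Endothelial markers, the other main site of Nrp1, summed to 498 to 569 in spinal cord, against 417 to 703 in lymph node, with Kdr at 84 to 96 and 86 to 88 in these tissues.

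Swap70, an adaptor that binds Rac and shapes the cytoskeleton, read 498, 675 and 682 in spinal cord, against 408, 389 and 389 in lymph node (1434225_at). Every spinal cord array was above every lymph node array. The log2 difference was 0.63 ± 0.15 and was not called (adjusted p = 0.163 by limma; 0.0762 with the block). The second probe set (1423543_at) read 275, 266 and 197 in spinal cord, against 277, 186 and 118 in lymph node, with overlap (0.42 ± 0.33). Of its paralogue Def6 and partners Rac1, Rac2, Rhoa, Irf4 and Cdc42, 0 of 6 were called (0 at an unadjusted p below 0.05 in the lower direction, 1 in the higher, and 0 with the block), and the nearest were Irf4 (0.63 ± 0.23), Def6 (-0.40 ± 0.43) and Cdc42 (-0.12 ± 0.14).

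**Figure D2:**
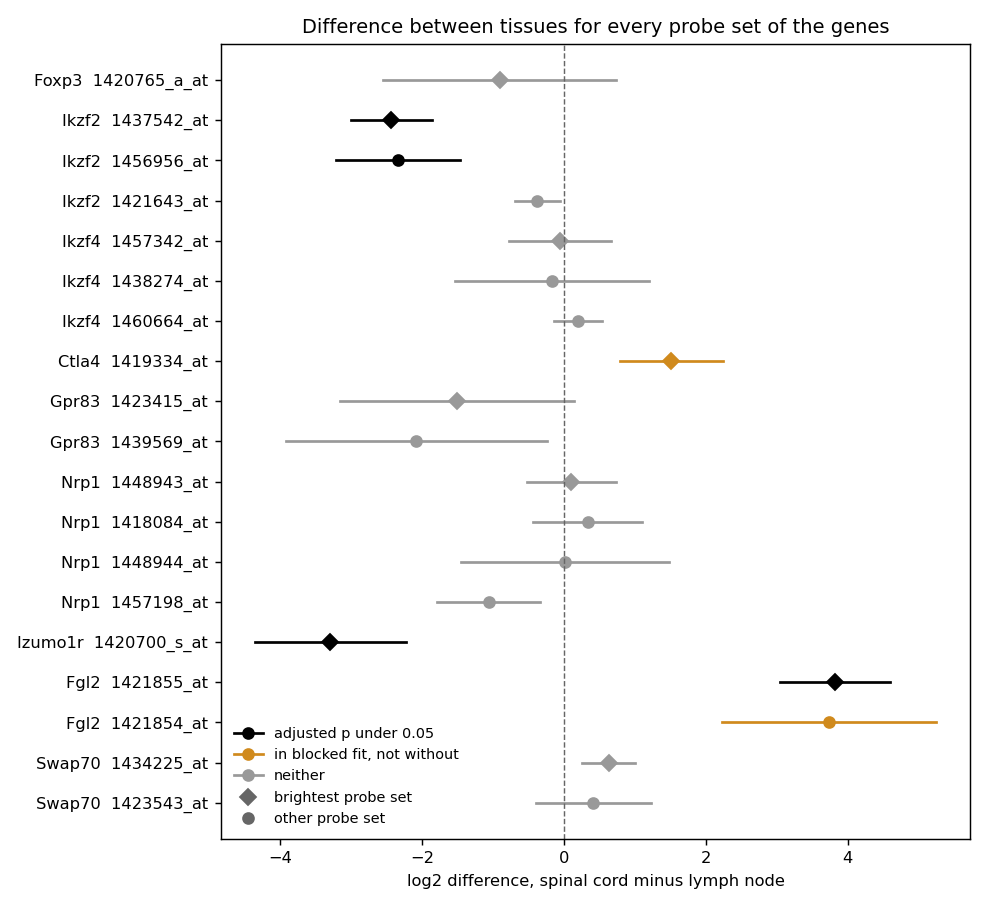
Log2 difference, spinal cord minus lymph node, with 95% limma intervals for all 19 probe sets (diamonds mark the brightest probe set of a gene). The 4 probe sets called at an adjusted p below 0.05 are in black and belong to Ikzf2, Izumo1r and Fgl2, and Ctla4 and the second Fgl2 probe set, in orange, were not called by that fit and were called with the array number as a block.

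The promoter windows of Fgl2 and Izumo1r, called in opposite directions, are shown with those of Foxp3 and Gpr83, so that these, and the chromosome 9 neighbours, can be read side by side. RefSeq windows of GRCm38.p6, from 250 bases before to 50 bases after an annotated start, were found for 7 of the 10 genes, without Ikzf2, Ikzf4 and Lrrc32. Capitals mark matches, on either strand, to AP-1 (TGANTCA), forkhead (TGTTTAC), NFAT (GGAAAA) or TATA box (TATAAA) letters, which occur in 7.81%, 3.65%, 23.4% and 13.6% of 32851 such windows.
Fgl2, chr5:21372423-21372722, plus strand: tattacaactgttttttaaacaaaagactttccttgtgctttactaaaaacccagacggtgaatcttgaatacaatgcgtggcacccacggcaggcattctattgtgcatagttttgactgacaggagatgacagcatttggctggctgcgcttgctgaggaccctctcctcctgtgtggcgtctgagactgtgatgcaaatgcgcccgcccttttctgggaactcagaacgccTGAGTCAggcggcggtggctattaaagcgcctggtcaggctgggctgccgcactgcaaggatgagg
Izumo1r, chr9:14903718-14904017, minus strand: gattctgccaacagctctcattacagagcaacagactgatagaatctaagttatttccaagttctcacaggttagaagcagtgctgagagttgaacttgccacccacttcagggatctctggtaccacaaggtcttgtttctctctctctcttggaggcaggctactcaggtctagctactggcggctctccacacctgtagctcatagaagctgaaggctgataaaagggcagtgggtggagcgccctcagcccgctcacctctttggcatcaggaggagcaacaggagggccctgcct
Gpr83, chr9:14859960-14860259, plus strand: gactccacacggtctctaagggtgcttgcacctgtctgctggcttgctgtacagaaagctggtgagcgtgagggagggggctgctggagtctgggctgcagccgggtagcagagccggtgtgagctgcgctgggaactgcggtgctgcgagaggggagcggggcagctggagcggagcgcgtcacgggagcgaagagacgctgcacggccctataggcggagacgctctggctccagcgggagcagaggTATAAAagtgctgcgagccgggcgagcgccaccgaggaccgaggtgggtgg
Foxp3, upstream start, chrX:7579426-7579725, plus strand: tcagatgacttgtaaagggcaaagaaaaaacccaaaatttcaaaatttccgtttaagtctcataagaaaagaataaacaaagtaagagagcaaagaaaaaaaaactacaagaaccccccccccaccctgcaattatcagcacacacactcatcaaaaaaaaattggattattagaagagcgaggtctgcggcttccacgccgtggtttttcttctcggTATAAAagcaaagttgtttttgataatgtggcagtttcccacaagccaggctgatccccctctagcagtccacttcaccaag
Foxp3, downstream start, chrX:7580233-7580532, plus strand: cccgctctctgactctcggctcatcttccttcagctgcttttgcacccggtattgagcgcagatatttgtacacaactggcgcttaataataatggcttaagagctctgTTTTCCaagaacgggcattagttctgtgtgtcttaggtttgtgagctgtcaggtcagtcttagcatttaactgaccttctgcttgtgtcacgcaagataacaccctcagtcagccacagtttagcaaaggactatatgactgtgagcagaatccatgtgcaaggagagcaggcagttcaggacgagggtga

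The Fgl2 window held an AP-1 match that begins 16 bases before the start, and none of the other 7 windows of these genes held one. The Izumo1r window matched none of the 4 motifs. The Gpr83 window held a TATA match at its annotated start, and its GC content was 67%, against 52.3% for Izumo1r and 51.7% for Fgl2. The upstream Foxp3 window held a TATA match that begins 32 bases before the start and the downstream one an NFAT match 141 bases before it. A match is a run of letters and was not tested as a binding site.

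Set against Foxp3 on the same array, Fgl2 and Ctla4 were higher in spinal cord and Izumo1r and Gpr83 were lower. Each did so without overlap between the tissues. No difference was called in the fit without variance moderation, which takes the error of each probe set from its own arrays. The log2 difference relative to Foxp3 was 4.73 for Fgl2 (95% interval 2.14 to 7.32 without variance moderation), -2.39 for Izumo1r (-4.54 to -0.23), 2.42 for Ctla4 (0.12 to 4.72) and -0.60 for Gpr83 (-1.32 to 0.12). That of Ikzf2 was -1.53 (-4.29 to 1.23), with overlap, so a fall of Helios by another amount than Foxp3 was not shown at this number of arrays. Relative to Foxp3, 7 of the 18 other probe sets were higher in spinal cord without overlap, against 3.87% of all, namely both of Fgl2, that of Ctla4, 2 of Nrp1 (1418084_at and 1448944_at), 1 of Ikzf4 (1438274_at) and 1 of Swap70 (1423543_at). These Nrp1, Ikzf4 and Swap70 probe sets overlapped between the tissues in their own levels. The brightest probe sets of the same genes overlapped relative to Foxp3. Lower without overlap were 3 of the 18, that of Izumo1r and both of Gpr83, against 0.142% of all.

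**Figure D3:**
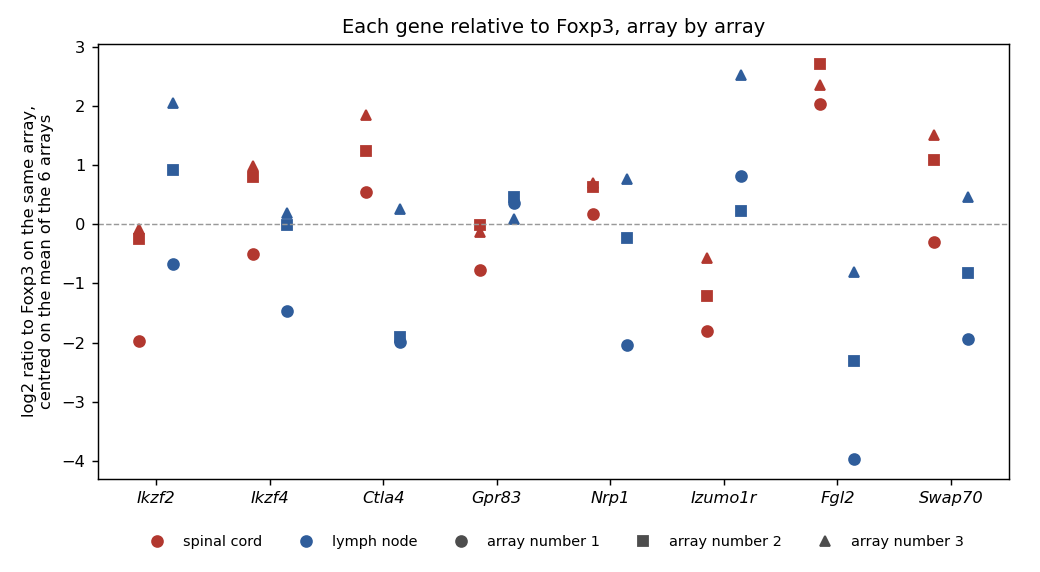
Log2 ratio of the brightest probe set of each gene to Foxp3 on the same array, centred for each gene on the mean of the 6 arrays, with spinal cord in red left of lymph node in blue and array numbers as marker shapes. Fgl2 lies between 2.03 and 2.72 in spinal cord, above all lymph node arrays, while Izumo1r lies between -1.80 and -0.57 in spinal cord, below all of them.

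The test of these ratios with limma's variance moderation called 2 probe sets higher, both of Fgl2, and 0 lower (1 at an unadjusted p below 0.05), against 0.331% and 0.0178% of all. Every ratio contains the same Foxp3 values, so the moderated fit gave all probe sets nearly the same standard error, 0.86 on the log2 scale, whatever their own scatter. Its p was smaller than without moderation for some probe sets (4.2e-08 against 0.00711 for the brighter Fgl2 probe set) and larger for others (0.484 against 0.0803 for the brighter Gpr83 probe set). For the brighter Fgl2 probe set the standard errors were close, 0.86 with moderation and 0.93 without. The moderated fit took this error as known without uncertainty, while the other fit estimated it from few arrays. Without moderation 0 of 45036 probe sets were called (918 at an unadjusted p below 0.05), and the adjusted p of Fgl2 was 0.563. With the block 10 of 18 were called higher and 4 lower, but 65.3% of all probe sets were called higher and 0.5% lower, and nothing is read from these calls.

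The profile of Foxp3 over the 6 arrays was compared with that of 11075 other genes whose mean level was at or above the median of all probe sets, by the root mean square difference of log2 values centred on each gene's mean. The 3 nearest were the GTP-binding protein gene Gtpbp6 (0.158), Itgae (0.192), which encodes the integrin CD103 carried by many regulatory T cells, and the cell cycle phosphatase gene Cdc25b (0.206). Itgae read 400, 241 and 171 in spinal cord, against 854, 573 and 213 in lymph node, so that it was high and low on the same arrays as Foxp3. Of the 8 other regulatory T cell genes measured, Gpr83 came nearest, at rank 80 (0.398), and Fgl2 was at rank 11054. For Ikzf2 the 3 nearest were the inositol phosphatase gene Inpp5f (0.151), Snai2 (0.219) and the Fc receptor-like gene Fcrl1 of B cells (0.225), and Izumo1r was at rank 485 (0.832). Inpp5f read 191, 369 and 347 in spinal cord, against 1492, 1511 and 1521 in lymph node. These distances describe 6 arrays that share a tissue contrast and array numbers, and carry no test.

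Other genes of these cells and pathways were taken from 12 lists with 125 genes beside the 10, of which 120 were measured, each by its brightest probe set. Of these 7 were called higher in spinal cord and 9 lower, with a median log2 difference of -0.02, while over all 18193 genes 0.77% were higher and 0.934% lower, with a median of 0.0019. With the block 23 were higher and 20 lower, against 2.87% and 5.03% of all genes. In fits without a single array, 1 of the 16, Cxcr5, was called in all 6, Pou2af1 in 5, Socs2, Ifng, Cd86 and Btla in 3, and Il2ra, Cd83, Plagl1, Itgb8, Il17a and Slamf6 in 1, while Ebi3, Entpd1, Fcgr2b and Cd200 were called in 0.

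Of 15 measured surface receptors of regulatory T cells, Il2ra rose and Cd83 fell. Il2ra, the alpha chain of the interleukin-2 receptor on which regulatory T cells depend, read 1483, 1699 and 1377 in spinal cord, against 484, 321 and 245 in lymph node (2.17 ± 0.26, adjusted p = 0.025 by limma). Cd83 read 95, 142 and 202 in spinal cord, against 1688, 1243 and 792 in lymph node (-3.08 ± 0.38, adjusted p = 0.0256). The costimulatory receptor gene Tnfrsf9 read 3096, 2303 and 2316 in spinal cord, against 1568, 1156 and 929 in lymph node (1.10 ± 0.23, adjusted p = 0.119; 0.0144 with the block). The list median was 0.52, and with the block 5 members were higher and 1 lower.

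The 17 measured effectors and suppressive mediators went both ways, with 2 higher and 3 lower, against 0.77% and 0.934% of all genes. Socs2, a feedback inhibitor of cytokine signalling, rose at 1032, 719 and 666 in spinal cord against 148, 90 and 131 in lymph node (2.72 ± 0.25, adjusted p = 0.0131 by limma), and the ectonucleotidase gene Entpd1 (CD39) also rose (1.63 ± 0.21, adjusted p = 0.0312). The zinc finger gene Plagl1 fell at 61, 66 and 124 in spinal cord against 613, 423 and 734 in lymph node (-2.86 ± 0.34, adjusted p = 0.0243). Ebi3, a chain of interleukins 27 and 35, fell at 341, 224 and 288 in spinal cord against 930, 937 and 1472 in lymph node (-1.96 ± 0.25, adjusted p = 0.0288). Itgb8, an integrin chain that activates latent TGF-beta, fell at 12, 13 and 15 in spinal cord, below the 20th percentile of all values, against 62, 188 and 198 in lymph node (adjusted p = 0.0397). It was also the 1 called member of the 10 genes of latent TGF-beta handling, whose median was 0.10 and of which 1 was higher and 2 lower with the block. In that list the protease gene Furin read 3811, 2196 and 1039 in spinal cord, against 1061, 809 and 363 in lymph node (1.60 ± 0.59, adjusted p = 0.367; 0.0074 with the block), and Ltbp3 differed by 0.54 ± 0.11 (adjusted p = 0.107). The list of effectors had a median of 0.84, and 8 were higher and 3 lower with the block, against 2.87% and 5.03% of all genes.

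None of the 29 measured regulators and partners of Foxp3 was called by limma, and the median was -0.20. At an unadjusted p below 0.05, 4 were higher and 5 lower, against 5.56% and 8.93% of all genes. With the block 1 was higher and 4 lower, against 2.87% and 5.03% of all genes. The smallest p-values were those of the maintenance methyltransferase gene Dnmt1 at -1.05 ± 0.24 (adjusted p = 0.142; 0.0441 with the block), the deubiquitinase gene Usp7 at -0.54 ± 0.14 (adjusted p = 0.175) and the ubiquitin ligase gene Stub1 at -0.73 ± 0.17 (adjusted p = 0.143). Of 12 genes that Foxp3 is known to keep low, 2 rose, namely Ifng at 12905, 18966 and 21388 in spinal cord against 258, 628 and 781 in lymph node (5.11 ± 0.45, adjusted p = 0.0125) and Il17a at 6420, 2152 and 1378 against 135, 173 and 90 (4.38 ± 0.59, adjusted p = 0.0356). Il4 of the same list read 24 to 34 in spinal cord, against 157 to 545 in lymph node (-3.10 ± 0.49, adjusted p = 0.0563; 0.0113 with the block), and the median was 0.07.

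Follicular helper genes, which share Izumo1r with regulatory T cells, had 5 of 12 members lower and 0 higher, against 0.934% and 0.77% of all genes. As this list was chosen with earlier results of these data known, its count is a description and not a test. The median was -2.12. With the block 8 were lower and 0 higher, against 5.03% and 2.87% of all genes. Cxcr5, the receptor that leads T cells into follicles, read 50, 39 and 74 in spinal cord, against 2118, 2497 and 3016 in lymph node (-5.58 ± 0.27, adjusted p = 0.00316 by limma). The inhibitory receptor gene Btla read 1187, 2341 and 1380 in spinal cord, against 11236, 12452 and 11127 in lymph node (-2.89 ± 0.26, adjusted p = 0.0127). The lymphocyte coactivator gene Pou2af1 read 27, 32 and 52 in spinal cord, against 932, 916 and 1614 in lymph node (-4.97 ± 0.33, adjusted p = 0.00781). Slamf6 and Cd200 also fell.

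**Figure D4:**
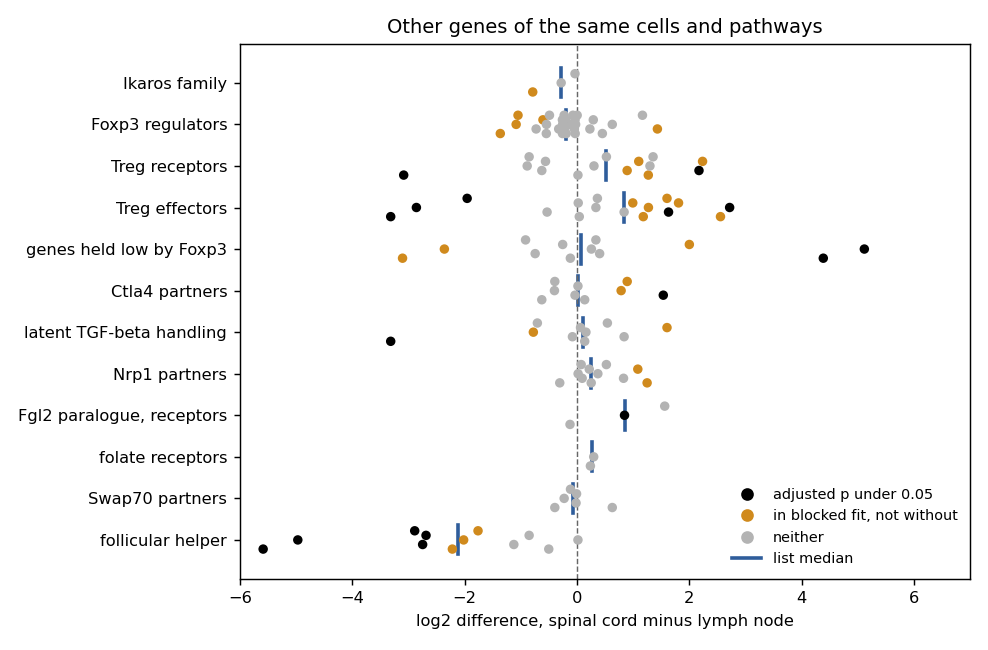
Log2 difference, spinal cord minus lymph node, of each measured gene in 12 lists (Treg, regulatory T cell), with blue bars at list medians. Genes called at an adjusted p below 0.05 are black and those called with the array number as a block but not without it are orange. The follicular helper median lies at -2.12 and that of the Foxp3 regulators at -0.20.

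Of 9 measured B cell markers, 2 were called lower in the same spinal cord arrays and 0 higher, against 0.934% and 0.77% of all genes, and 7 were not called. With the block 3 were lower and 0 higher, against 5.03% and 2.87% of all genes. At an unadjusted p below 0.05, 3 were lower and 0 higher, against 8.93% and 5.56% of all genes. The list median was -0.10, with 3 positive log2 differences. The summed level, most of it Ighm, was 1502 to 2069 in spinal cord, against 5932 to 9147 in lymph node. The 2 called without the block were Cd22 at 108, 98 and 116 in spinal cord against 620, 679 and 750 in lymph node (-2.67 ± 0.12, adjusted p = 0.00307 by limma) and the immunoglobulin heavy chain gene Ighm at 1643, 1226 and 1099 against 8119, 5879 and 4898 (-2.24 ± 0.24, adjusted p = 0.0189). The defining B cell genes Cd79a and Ms4a1 stayed at 36 to 54 and 28 to 39 in spinal cord and at 40 to 63 and 27 to 43 in lymph node, below 70, the median of all intensities. The part of these markers in the lower values of Ikzf2, Izumo1r, Cd83, Ebi3, Pou2af1 and Cxcr5 was not tested. The natural killer cell list had 1 of 6 members called higher (Klrd1, which T cells also express), with a summed level of 2854 to 4373 in spinal cord, against 784 to 2247 in lymph node. The neutrophil list summed to 575, 2307 and 849 in spinal cord, against 436 to 602 in lymph node. The platelet list summed to 2239 to 4191 in spinal cord, against 1144 to 2011 in lymph node. Of its 5 measured members 0 were called, and with the block 1 was higher and 0 lower. The platelet gene Pf4 read 20 to 23 in spinal cord, against 21 to 25 in lymph node. These values are near the 20th percentile of all intensities and a small part of that sum. The brighter members of the list are not named here. The neural list summed to 3980 to 6582 in spinal cord, against 4310 to 6670 in lymph node.

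**Figure D5:**
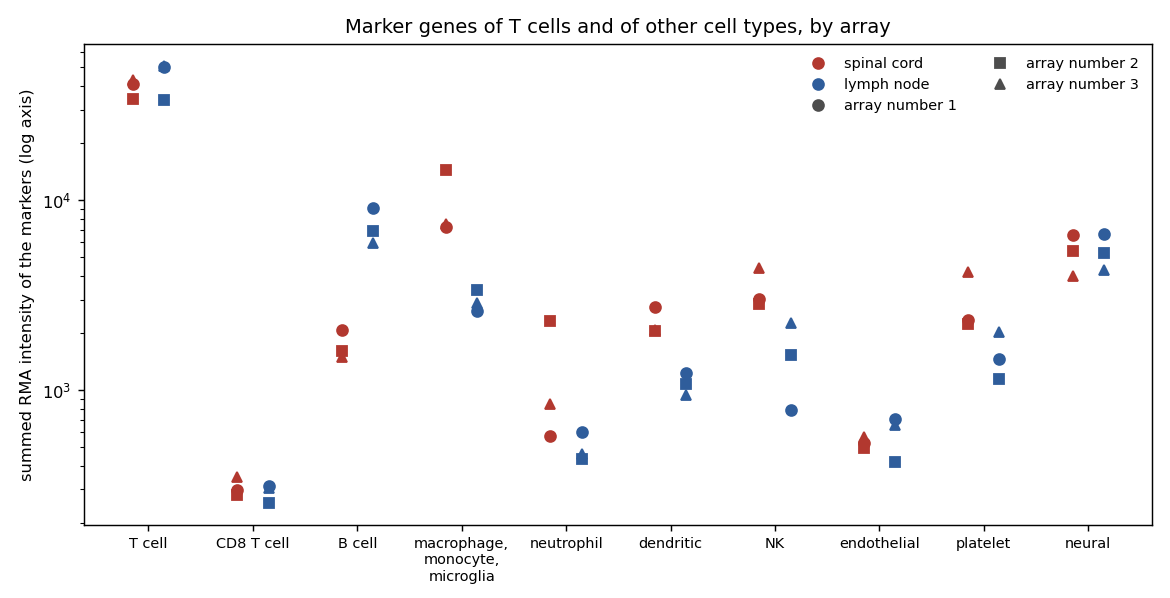
Summed RMA intensity (log axis) of the measured markers of T cells and of 9 other cell types on each array, with spinal cord in red left of lymph node in blue and array numbers as marker shapes. The macrophage, monocyte and microglia sum lies between 7202 and 14367 in spinal cord, above all lymph node arrays. A large part of it is Ccr2, which T cells also express. The B cell sum, most of it Ighm, lies between 1502 and 2069 in spinal cord, below all lymph node arrays.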

How the data were processed

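The deposited values were intensities on a linear scale, rounded to whole numbers from 9 to 39505, for 45101 probe sets, and RMA is named in the submitters' processing notes (no version stated there). Per the labels' protocols, total RNA was taken with RNeasy columns and 1 ng was amplified in 2 cycles to biotin-labelled cRNA, a step that can widen scatter between arrays. No 2 arrays held the same values. After leaving out 64 controls, 45037 probe sets were tested on the log2 scale, without a filter, with limma 3.58.1 in R 4.3.3 (lmFit and eBayes, spinal cord against lymph node, no block, called at a Benjamini-Hochberg adjusted p below 0.05), and the fit was tested on simulated data. Tables and figures were made with Python 3.11.15. The platform annotation names 1 gene for 34945 probe sets, several for 932 and none for 9160. A gene is shown by its probe set with the highest mean where only 1 is given.

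The members and the lists were chosen with earlier results of these data known. Named were all probe sets of the members, up to 3 genes of each related list by smallest p, and the 3 genes nearest in profile to Foxp3 and to Ikzf2. Naming the 2 highest genes of each cell type list was planned but was not done for every list. No gene of the dendritic cell, neutrophil and neural lists is named. Entpd1, Slamf6, Cd200 and the cell type genes Cd4, Cd8a, Itgam, Kdr, Cd79a, Ms4a1 and Pf4 were named after their values were seen.

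Titles carry an array number from 1 to 3 with no meaning attached. Same-numbered arrays deviated together from their tissue means (r = 0.608, 0.554 and 0.773), other cross-tissue pairs did not (r = -0.549 to -0.0438), although centring builds in part of this contrast. The numbers were therefore taken as pairs in the blocked alternative, while the calls come from the fit without the block. An exact permutation test of 3 arrays against 3 cannot go below p = 0.1. Alternatives were the block, each array left out, a filter at the 40th percentile, quantile normalization, centring on T cell genes, a trended robust variance, a floor at the 20th percentile and 1 probe set per gene.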

Additional observations from a re-analysis of the deposited data

How the results depend on the processing

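Between the tissues, 1 member probe set was called higher and 3 lower. With the replicate block these counts were 3 and 3, with the 40th percentile filter the higher count was 2, with centring on T cell identity genes it was 3 and with the trended robust variance it was 2. A floor at the 20th percentile gave 0 higher and 0 lower, and left many dim probe sets with tied values and no variance. Without 1 array the counts were 0 to 2 higher and 0 to 1 lower. The block without both arrays of number 1, 2 or 3, added after the data were seen, gave 0 higher and 0 lower each time, with 2 arrays a tissue. Relative to Foxp3, 2 higher and 0 lower became 10 and 4 with the block, 1 to 3 higher and 0 lower without 1 array, and 0 higher without variance moderation (added later). The block without number 3 gave 13 higher and 5 lower, without number 1 it gave 3 and 2, and without number 2 it gave 2 and 1. With the block on all arrays 65.3% of all probe sets were called higher and 0.5% lower. The shares for the fits without a number are not given here, and nothing is read from any of these blocked calls. A second Foxp3 probe set as the denominator was not run, since 1 probe set names Foxp3. Of the related genes, 7 higher and 9 lower became 23 and 20 with the block, 0 and 1 with the floor, 0 to 4 and 2 to 6 without 1 array, and 0 and 0 in the block without number 1, 2 or 3.

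No alternative turned the direction of Foxp3, Ikzf2, Izumo1r, Gpr83, Fgl2, Ctla4 or Swap70. Over the 16 alternatives the call was lost in 8 for Ikzf2, 9 for Izumo1r and 6 for Fgl2, and gained in 2 for Ctla4. Ikzf4, at -0.06, ranged from -0.37 to 0.17 without 1 array (positive without spinal cord array 1 and lymph node arrays 1 and 2), and turned to 0.078 with quantile normalization, 0.073 with T cell centring, and 0.12 and 0.080 in the block without numbers 1 and 2. Nrp1, at 0.10, ranged from -0.11 to 0.29 without 1 array (negative without array 1 of either tissue) and turned to -0.27 in the block without number 1. The cause of these changes was not tested. With 3 arrays a tissue, Foxp3, Gpr83, Ikzf4, Nrp1 and Swap70 had intervals that hold both directions on at least 1 probe set.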
